A study of Mus musculus with 2 samples.

Results

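The promoters described here are those of the proteasome genes, chosen by name: every protein-coding gene of the GENCODE annotation of mm10 whose symbol is Psma, Psmb, Psmc, Psmd, Psme, Psmf or Psmg followed by a digit. The rule found 50 genes of 21938 protein-coding genes, and it used no measured value. The assay was ATAC-seq, which reads open chromatin from the fragments that a transposase cuts and tags there, in 1 group of 2 replicate libraries with no contrasting condition. The cells were mouse neural progenitors, differentiated for 5 days from an embryonic stem cell line with the red fluorophore mKate2 reporting Olig2, in 100 nM retinoic acid and 100 nM SAG, which activates the Sonic hedgehog pathway. Live mKate2-positive cells were sorted and 50000 of them entered each reaction. A reporter gate of this kind can also keep newly formed motor neurons and progenitors that express NKX2.2 beside OLIG2, as the study describes. Nothing in the labels said that the replicates came from separate cultures, so the spread between them may be technical.

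The proteasome is the protease that degrades proteins marked with ubiquitin. Its barrel-shaped core particle has outer rings of alpha subunits (Psma genes) and inner rings of beta subunits (Psmb genes), of which 3 carry the protease sites. A regulatory particle caps the core, with a ring of ATPases (Psmc genes) that unfold the substrate and non-ATPase subunits (Psmd genes) that bind and remove ubiquitin. Dedicated chaperones assemble the particle, and other activators can replace the regulatory cap. Most of these genes are expressed in all cells, and the transcription factor NFE2L1 raises their transcription through antioxidant response elements (ARE) when proteasome activity is short. A few subunits are characteristic of immune cells, the thymus or the testis, though not all of them are confined there.

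Short stretches of the promoters that the following sections turn on are printed first, each of the 100 bases before the transcription start site (TSS) given by RefSeq on GRCm38.p6, the same assembly as mm10, 5′ to 3′ on the gene's strand. Of the 50 genes, 42 had an entry in the RefSeq promoter table used here. Capitals mark the letters of 8 motifs that were searched on both strands. These were the ARE core TGACNNNGC, the CCAAT box, the core CCGGAAG of the ETS family, the GC box GGGCGG bound by Sp factors, the nuclear respiratory factor core GCGCATGCG, the YY1 core AAGATGGCG, the TATA box TATAAA, and by name only the core of the interferon-stimulated response element (ISRE). A match is a run of letters and no evidence of binding. The first 3 stretches hold the ARE core, and belong to 2 catalytic subunits and to the gene with the lowest promoter density among those with an interval.
Psmb5 (chr14:54617996-54618095, minus strand): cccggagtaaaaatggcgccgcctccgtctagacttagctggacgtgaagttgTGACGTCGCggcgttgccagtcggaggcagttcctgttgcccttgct
Psmb6 (chr11:70525257-70525356, plus strand): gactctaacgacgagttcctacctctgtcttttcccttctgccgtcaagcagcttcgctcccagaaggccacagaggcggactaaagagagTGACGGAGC
Psmd9 (chr5:123228090-123228189, plus strand): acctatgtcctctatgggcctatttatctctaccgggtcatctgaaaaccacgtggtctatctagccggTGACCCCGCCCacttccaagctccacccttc
The next 4 hold the ETS core, which Psmc3ip has at 3 positions. In Psmd9 the ARE core and a GC box overlap, and in Psme4 the ETS core and a GC box do.
Psmd2 (chr16:20651552-20651651, plus strand): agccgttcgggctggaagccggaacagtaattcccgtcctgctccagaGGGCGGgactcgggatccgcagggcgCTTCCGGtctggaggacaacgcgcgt
Psmd11 (chr11:80428515-80428614, plus strand): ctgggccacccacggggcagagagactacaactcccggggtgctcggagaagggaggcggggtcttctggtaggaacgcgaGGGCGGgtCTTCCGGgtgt
Psmg1 (chr16:95990961-95991060, minus strand): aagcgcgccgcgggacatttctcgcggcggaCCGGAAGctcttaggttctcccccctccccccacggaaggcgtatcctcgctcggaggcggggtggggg
Psmc3ip (chr11:101095436-101095535, minus strand): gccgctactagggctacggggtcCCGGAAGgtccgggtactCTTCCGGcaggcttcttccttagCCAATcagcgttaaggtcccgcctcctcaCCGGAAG
The last 3 are from promoters with the highest densities in their groups, and Psma5 holds none of the 8 motifs in these 100 bases.
Psma5 (chr3:108256826-108256925, plus strand): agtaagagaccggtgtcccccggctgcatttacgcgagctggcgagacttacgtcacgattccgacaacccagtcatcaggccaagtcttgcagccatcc
Psmd8 (chr7:29180674-29180773, minus strand): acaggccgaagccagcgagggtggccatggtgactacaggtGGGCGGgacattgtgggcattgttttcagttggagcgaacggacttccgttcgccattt
Psme2 (chr14:55591102-55591201, minus strand): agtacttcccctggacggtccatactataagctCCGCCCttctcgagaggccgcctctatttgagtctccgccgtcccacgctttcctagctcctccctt

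Nearly every proteasome gene had an accessible promoter. Of the 50 genes, 47 (94%) had a TSS inside one of the 119502 intervals, against 68.1% of all protein-coding genes (14945 of 21938). The intervals were regions called as peaks, and a gene whose TSS lay in none was given 0. All of the 7 core alpha, 7 core beta, 6 ATPase, 11 non-ATPase and 5 activator and inhibitor genes and all 7 assembly factors had one. The 3 genes without were Psma8, an alpha subunit of the testis, Psmb11, a beta subunit of the thymus, and Psme2b, a copy of the activator gene Psme2. For Psma8 an interval of 20 counts in replicate 1 and 17 in replicate 2 ended 12 bp from a TSS, and for Psmb11 an interval of 47 and 57 counts lay 46 bp away. The nearest interval to Psme2b was 10745 bp away, with 3 and 2 counts. An absent interval therefore says that no called peak covered the TSS, not that no fragments were there. All of the 4 pseudogenes named after a proteasome gene lacked a TSS interval.

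Levels are given as promoter density, the counts of a gene's TSS intervals divided by size factors, which scale the libraries to a common depth, and by their summed length in kb, written as mean ± SD over the 2 libraries. Over the 50 genes the median density was 867 ± 16.7 (n = 2), against 491 ± 8.19 over all protein-coding genes. The ratio of the medians was 1.77 ± 0.00454 (n = 2), with 1.77 in replicate 1 and 1.76 in replicate 2. The ratio was smaller once genes at 0 were left out. Among genes with a TSS interval, the median was 888 ± 34.5 for the 47 proteasome genes and 827 ± 18.2 for the 14945 genes, a ratio of 1.07 ± 0.0181 (1.09 and 1.06). That ratio was 0.996 when only the start of the gene record counted as TSS and 0.845 when counts were not divided by interval length. Of the 47 proteasome genes with an interval, 29 had a density above the median of genes with one, against 7472 of all 14945 such genes. With genes at 0 included, this was 29 of the 50 against 34.1% of all protein-coding genes (7472 of 21938). That gap includes the difference in having an interval. Without division by length, 16 of the 47 lay above the median. By density, 11 were in the upper quartile of genes with an interval and 5 in the lower quartile. In bulk cells, a promoter open in fewer cells and one less open in each cell cannot be told apart.

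The proteasome promoters were more even than those of genes in general. The SD of log2 density was 0.74 among the 47 genes and 1.26 among all genes with an interval. Between the 25th and the 75th percentile, proteasome genes ran from 663 to 1226 and all genes from 468 to 1258. The lowest of the 47 was Psmd9 at 208 ± 1.29 and the highest Psme2 at 1959.9 ± 40.6, a 9.44-fold range. Other housekeeping complexes were similar. Of 85 cytosolic ribosomal protein genes 82 had a TSS interval, with a median density of 934 ± 37.6, and of 83 nuclear oxidative phosphorylation genes 77 had one, with 859 ± 12.7. Relative to these, the proteasome median was 0.951 ± 0.00129 and 1.03 ± 0.0249. The SD of log2 density was 0.66 for the ribosomal and 0.71 for the oxidative phosphorylation genes.

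**Figure D1:**
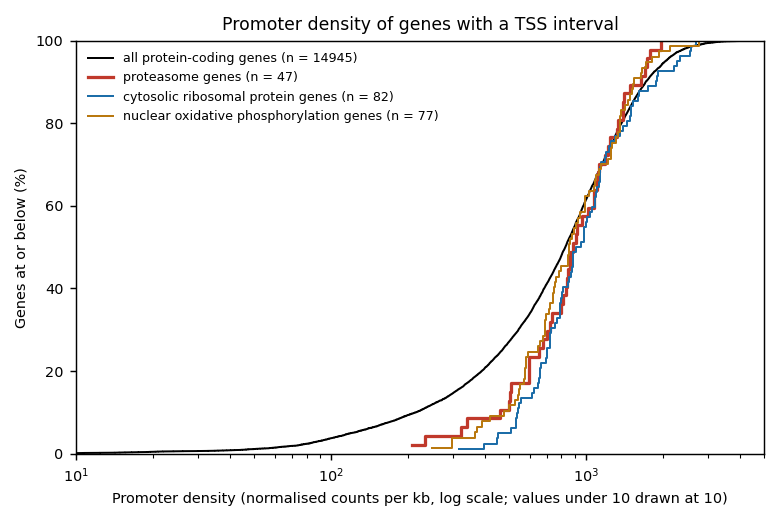
Cumulative share of genes (%) by promoter density in normalised counts per kb on a log scale, mean of 2 libraries, for genes with a TSS interval. The curves of proteasome, ribosomal protein and oxidative phosphorylation genes run close together. They meet the curve of all 14945 genes in the upper part and leave it in the lower part, where the lowest of the 47 proteasome genes sits at 208.

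The core alpha subunits form the outer rings of the barrel and gate its entry, and 6 of the 7 lay above the median of all genes with an interval. The group median was 1181 ± 48.5 normalised counts per kb. The highest density was at Psma5, with 1716 in replicate 1 and 1741 in replicate 2, followed by Psma6 with 1458 and 1510.4. Psma7, with 1379.7 and 1415, came next, and the replicate values of these genes did not overlap. The lowest were Psma1, with 599 and 591, and Psma4, with 867 and 854. Psma1 lay at the 33.4th percentile of genes with an interval and Psma5 at the 90.3rd. The group's values did not overlap between Psma1 and any other alpha gene.

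The core beta subunits were lower and more spread out. Their median was 599 ± 17.6, and 3 of the 7 lay above the median of genes with an interval. All 3 catalytic genes were at the bottom of the group. Psmb5, which encodes the chymotrypsin-like site, had densities of 519 and 492 from 444 and 421 counts. Psmb6, which encodes the caspase-like site, had 509.6 and 488 from 541 and 518 counts. Psmb5 and Psmb6 could not be separated, since their replicate ranges overlapped. Psmb7, the trypsin-like site, had 385 and 298 from 428 and 332 counts, below Psmb5 and Psmb6 in both libraries. Their percentiles among genes with an interval were 27.5, 27.1 and 17.1. Of the non-catalytic genes, Psmb4 was closest to them, with 611 and 587. Psmb3 was the highest beta gene, with 1743 and 1667 (899 on average when intervals within 1 kb of a TSS were added), and Psmb1 the next, with 1089 and 1049.7 over 2 intervals of similar density.

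The tissue-specific core subunits replace the standard ones in particular cells. The immune subunits Psmb8, Psmb9 and Psmb10 take the places of Psmb5, Psmb6 and Psmb7. Psmb8 had densities of 235 and 229.5 from 300 and 293 counts, at percentile 10.97 of genes with an interval. Psmb9 had 1157 and 1088, but its interval also held the TSS of Tap1, a peptide transporter gene of antigen presentation on the opposite strand, so its counts cannot be given to either gene. Psmb10 had 1096 and 1048 from 1750 and 1675 counts. The first TSS inside its interval lay 340 bp from the start of the gene record, and the interval held only TSSs of transcripts without a coding annotation. It was on chromosome 8, where the median density of genes with an interval was 1.43 times that of all chromosomes. Relative to its own chromosome, Psmb10 stood at 0.902 of the median and Psmb8, on chromosome 17, at 0.278. Over the 5 genes, including Psma8 and Psmb11 at 0, the median was 232 ± 4.01.

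**Figure D2:**
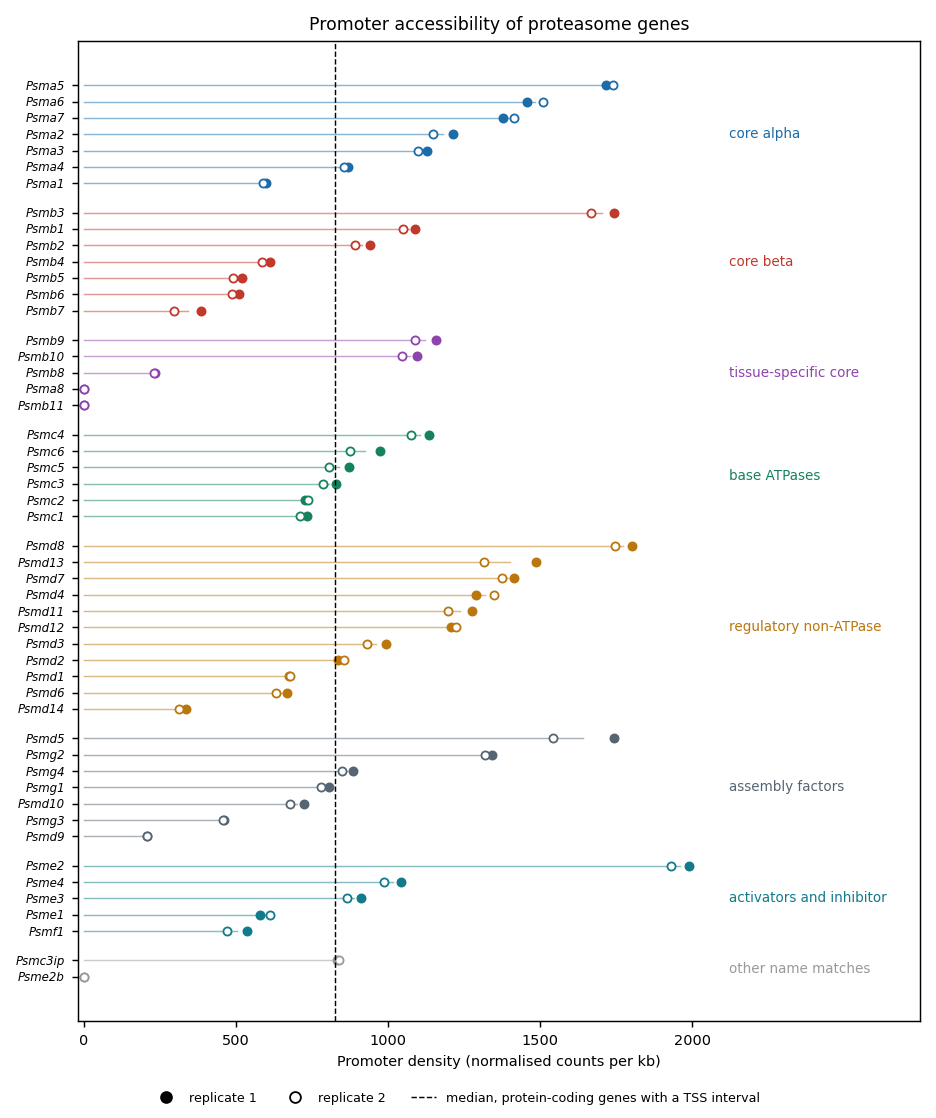
Promoter density of the 50 proteasome genes in normalised counts per kb, with replicate 1 as filled and replicate 2 as open points, ordered within groups by their mean. The dashed line is the median of all protein-coding genes with a TSS interval (827). The 3 catalytic beta genes Psmb5, Psmb6 and Psmb7 and the immune gene Psmb8 lie left of it, and Psma8, Psmb11 and Psme2b sit at 0.

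The ATPases of the base, which form the ring that unfolds substrates, were the most even group with more than 1 accessible gene. Their SD of log2 density was 0.23, against 0.52 in the core alpha and 0.79 in the core beta group. The median was 824 ± 38.3, and 3 of the 6 genes lay above the median of genes with an interval. Psmc4 was the highest, with 1134 and 1077, and Psmc6 followed with 972 and 875. Psmc1, with 733 and 712, and Psmc2, with 728 and 738, were the lowest. Their replicate values overlapped, so the order of these 2 was not resolved.

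Among the non-ATPase subunits of the regulatory particle, 8 of 11 lay above the median of genes with an interval, with a group median of 1203 ± 7.57. Psmd8, a lid subunit, was the highest, with 1802 and 1745, and Psmd13, another lid subunit, was next, with 1488 and 1316. Psmd13 shared its interval with Sirt3, a mitochondrial deacetylase gene on the opposite strand. Psmd7, at 1395 ± 27.2, fell inside the replicate range of Psmd13, and the ubiquitin receptor gene Psmd4, at 1319 ± 40.1, overlapped it. Relative to the median of its own chromosome, Psmd7, on chromosome 8, stood at 1.17, Psmd13 at 1.73 and Psmd4 at 1.53. Psmd14, which encodes the deubiquitinase that strips ubiquitin from substrates, was the lowest, with 335 and 313. That value joins a strong interval at the gene record start, with 915 and 849 counts, to a weak one, with 98 counts in each library, around a TSS 53692 bp downstream. The strong interval alone had a density of 573, which would still be the lowest of the group. Psmd6, a lid subunit, was the next lowest, with 669 and 632, and Psmd1, a scaffold of the base, lay just above it at 676 ± 1.83.

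The assembly factors spread the most among the groups in which every gene was accessible, with an SD of log2 density of 0.99 and a median of 793 ± 18.1. Psmd5, a chaperone of the base, had 1742 and 1543. Psmd9, also a base chaperone, had 207 and 208 from 207 and 209 counts, the lowest density of all proteasome genes with an interval. The TSS of Psmd9 inside the interval lay 58777 bp from the start of its gene record, and no interval covered that start. The same held, at shorter distances, for Psma6, Psmb10, Psmd5 and Psmf1. Psmd10, the third base chaperone, known as the oncoprotein gankyrin, had 725 and 678. It is on the X chromosome, where the median of genes with an interval was 0.607 of the overall median, and Psmd10 stood at 1.40 times the X median. The chaperones of the core particle ranged widely. Psmg2 had 1343 and 1319.5, Psmg4 had 885 and 848, Psmg1 had 806 and 780.3, and Psmg3 had 460.5 and 459. The first of these 4 shared its interval with Cep76 and the last with Gm26938. None of the 4 overlapped another in its replicate values.

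The activators open the core in place of the regulatory particle, and Psmf1 encodes an inhibitor. Psme2, an interferon-inducible activator gene, had the highest density of all 50 genes, with 1989 and 1931 from 3095 and 3008 counts. Its interval extended 1144 bp upstream and held the TSS of Rnf31, a ubiquitin ligase gene on the opposite strand. Psme1, which encodes the partner of Psme2 in the same ring, had 581 and 612, with replicates that did not overlap those of Psme2. Psme4, an activator of acetylated histone turnover, had 1044 and 987, and Psme3, the nuclear activator, had 913 and 864. Psmf1 had 537 and 472. Among the other names that the rule took in, Psmc3ip encodes a partner of meiotic recombinases and no proteasome subunit, and had 833 and 839.7. Psme2b had no interval.

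Proteasome TSS intervals were of ordinary size. The 49 intervals had a median length of 1119 bp (742 to 1613), against 1188 bp for all 16234 TSS intervals. They reached a median of 447 bp upstream and 624 bp downstream of the most upstream TSS inside. Where an interval held several TSSs, measuring from the most upstream one lengthened the downstream part. A coding exon of the gene lay in 45 of the 49, and 48 included some of its untranslated sequence. Only Psmb1 and Psmd14 had 2 intervals. The start of the gene record lay in an interval for 42 genes. The rank correlation of density with interval length was -0.07 over the 47 genes and -0.03 over all 14945, given as a description because each interval's counts and length come from the same peak.

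**Figure D3:**
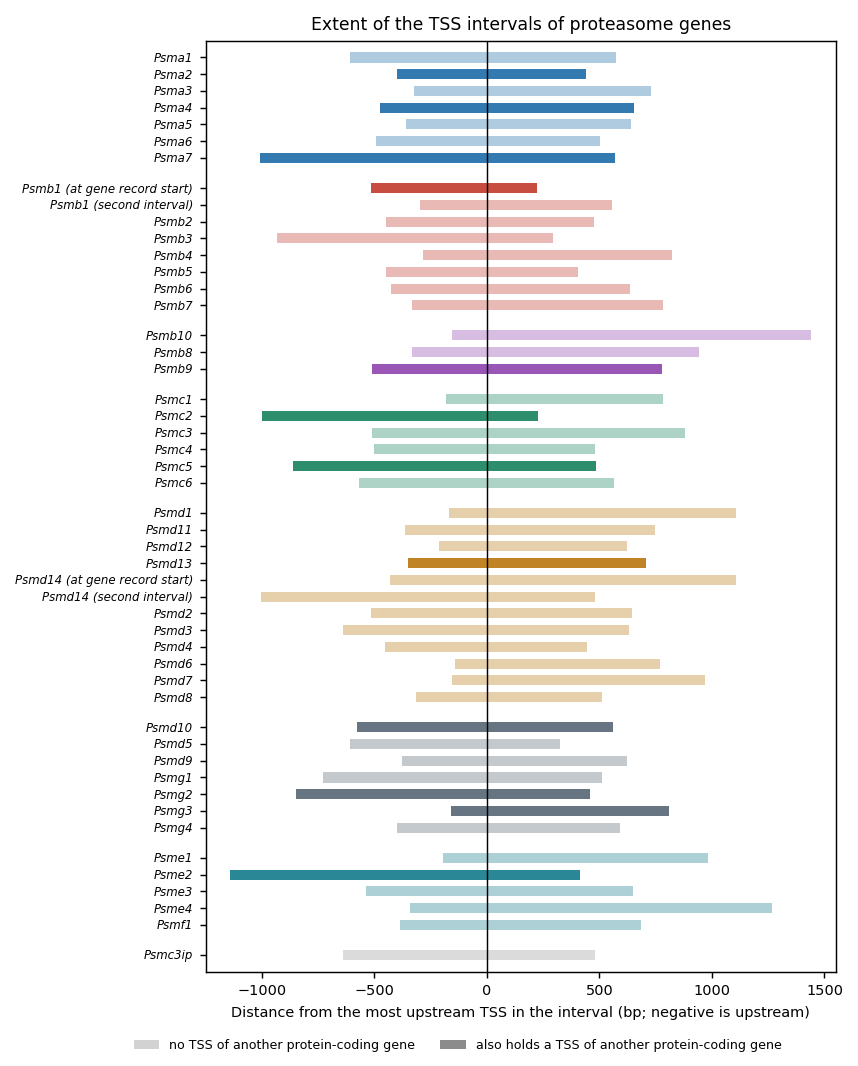
Extent in bp of the 49 TSS intervals around the most upstream TSS inside each, with the direction of transcription to the right. Dark bars are intervals that also hold the TSS of another protein-coding gene, among them Psme2 and Rnf31, which reaches 1144 bp upstream. Most bars reach farther downstream than upstream, to which the choice of the most upstream TSS contributes where an interval holds several.

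Some of the proteasome TSS intervals also held the TSS of a neighbouring gene. Of the 47 genes, 12 had the TSS of another protein-coding gene in the same interval, against 18.8% of all genes with an interval (2816 of 14945). The neighbour was on the opposite strand in 11 of the 12, as in 2495 of the 2816, and on the same strand for Psmg3. Beside those named, the pairs were Psma2 with the mitochondrial ribosomal gene Mrpl32, Psma4 with AY074887, Psma7 with Ss18l1, Psmb1 with the TATA-binding protein gene Tbp, Psmc2 with the chaperone gene Dnajc2, Psmc5 with the ribosome biogenesis gene Ftsj3, and Psmd10 with the autophagy protease gene Atg4a. No 2 proteasome genes shared an interval. Shared intervals were denser in both sets. The median density was 1096 ± 38.2 for the 12 genes and 871 ± 20.4 for the other 35, and over all genes 1097 ± 22.4 and 764 ± 16.1. Among genes with an unshared interval alone, the ratio of the proteasome to the general median was 1.14. Counts in a shared interval cannot be divided between the genes, and use of a common promoter was not tested.

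The 2 libraries gave nearly the same values at these promoters. They held 31876165 and 31672240 counts in all, of which 53518 (0.168%) and 51660 (0.163%) were in proteasome TSS intervals. Counts per interval ran from 98 to 3095. The SD of the log2 ratio of replicate 2 to replicate 1 was 0.08 over the 49 intervals and 0.09 over the 14007 TSS intervals of the same range of counts. By a two-sided exact binomial test with Benjamini-Hochberg adjustment at a limit of 0.01, 0 of the 49 differed between the libraries, with 0% of all 119502 intervals called, and edgeR TMM factors, total counts or a chi-square test also gave 0 of the 49. The smallest adjusted p of the 49 was 0.202 (exact binomial test), at Psmb7, and ranged from 0.186 to 0.239 under other scalings and a chi-square test. At an unadjusted p under 0.05 there were 5 of the 49, Psmb7, Psmd5, Psmd13, Psmc6 and Psmf1. This compares with 8.39% of all intervals and 13.1% of the TSS intervals of the same depth. All 5 were lower in replicate 2, as were 37 of the 49 and 67.1% of the TSS intervals of that depth. Psmb7 had the largest difference, with a log2 ratio of -0.37. The test compares a single count from each of the 2 libraries and so covers counting error only. No molecular identifiers were used.

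**Figure D4:**
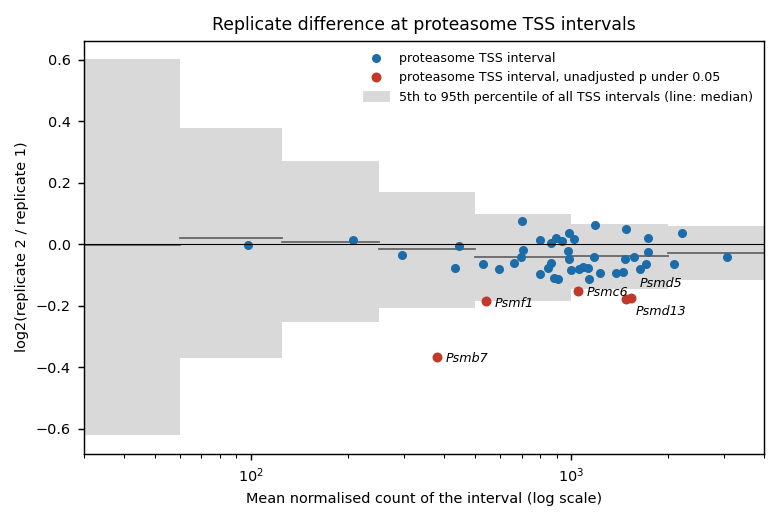
Log2 ratio of replicate 2 to replicate 1 against the mean normalised count (log scale) of the 49 proteasome TSS intervals, with red points at an unadjusted exact binomial p under 0.05. Grey bands hold the 5th to 95th percentile of all TSS intervals of that depth and grey lines their median. Psmb7, at -0.37, lies farthest from 0.

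Promoter letters were counted in the window from 250 bases before to 50 after the start of the gene record. The ARE core was in 6 of the 50 (Psmb2, Psmb5, Psmb6, Psmc6, Psmd12 and Psmd7), against 12.5% of all protein-coding promoters, a share of 12% near the background. In a longer window, from 500 bases before to 100 after, it was in 16 (32%), against 21.5% of all and 23.1% of those with a TSS interval. The ETS core was in 17 (34%), against 10.8% of all and 14.8% of those with a TSS interval. By group, it was in 4 of 6 ATPase and 6 of 11 non-ATPase genes and in none of the 14 core alpha and beta genes in this window. That split was chosen for mention after its values were seen, and the longer window held the ETS core in Psma2. Ribosomal protein promoters held the ETS core in 23 of 85 and oxidative phosphorylation promoters in 16 of 83. CCAAT was in 19 of the 50 (38%), against 39% of all. The GC box was in 27 (54%), against 43% of all but 59.03% of those with a TSS interval. The remaining motifs were in few promoters. The TATA box was in 4 (8%), against 12.6% of all and 7.48% of those with a TSS interval, and the ISRE core in 5 (10%), against 3.55% and 3.01%. The YY1 core was in 3, against 1.7% and 2.38%, and the nuclear respiratory factor core in 2, against 2.48% and 3.06%. Of the 85 ribosomal protein promoters 5 held the YY1 core and 5 the ISRE core, and of the 83 oxidative phosphorylation promoters 3 and 4. The ISRE core was in Psma4, Psmb3, Psmd4, Psmd7 and Psmg4 and in none of the immune subunit genes in this window, while the longer window also held it in Psmb9. No match says only that these letters were not in the window.

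At the coding TSS inside the strongest interval of each gene, which 46 proteasome and 14638 protein-coding genes had, the counts were close to those at the gene record start. The ETS core was in 16 of 46, against 15.7% of all, and it was gained by Psma6. The ARE core was in 7 of 46, against 14.1%, with Psmd9 as the addition. The 7 ARE matches began at a median of 38 bases before the TSS, and 6 of them were upstream. The ARE of Psmb5 began 20 bases and that of Psmb6 38 bases before this coding TSS. From the RefSeq TSS of the stretches printed above, the distances were 47 and 9 bases. For the ETS core, 19 matches in 16 genes began at a median of 26 bases before the TSS, and 11 were upstream. At this TSS, the median density was 916 for the 7 genes with the ARE core and 867 for the 39 without, and 867 for the 16 genes with the ETS core and 891 for the 30 without. At the gene record start, the windows of the 47 genes had a median GC content of 56.3% and a ratio of observed to expected CpG of 0.754, against 59.7% and 0.713 for all genes with an interval and 55% and 0.525 for all protein-coding genes.

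**Figure D5:**
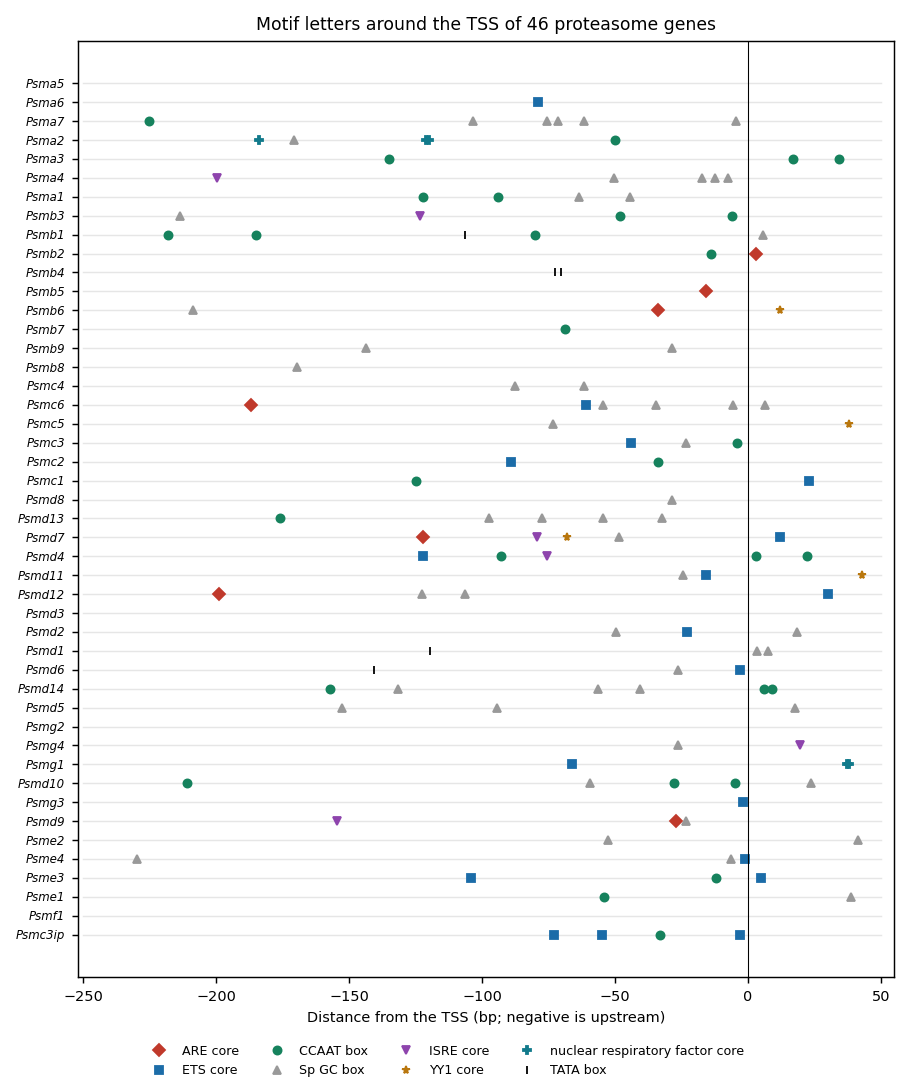
Positions of the motif letters on either strand in bp from the coding TSS in the strongest interval of 46 proteasome genes, 1 row per gene. The ARE core (red diamonds) appears in 7 rows and the ETS core (blue squares) in 16, and the rows of Psma5, Psmd3, Psmg2 and Psmf1 have no match.

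Other genes that act with the proteasome were accessible too. Of 11 listed cofactors, 10 were found in the annotation by symbol and all 10 had a TSS interval, with 7 above the median of genes with one and a median density of 1006 ± 17.7. The highest was the ubiquitin receptor gene Adrm1 at 2619 ± 31.98 and the lowest the phosphatase gene Ublcp1 at 697 ± 32.7. All 11 genes of the NFE2L1 pathway had an interval, 10 above the median, with a group median of 1378 ± 20.1. Nfe2l1 itself was at that median, and Ddi2, the protease that activates it, was the lowest at 634 ± 28.8. For ubiquitin and shuttle genes 13 of 13 had an interval, 7 above the median, with 1064 ± 39.4. Antigen presentation genes had an interval in 11 of 11 but lay above the median in 4, with 588 ± 65.2. The lowest of these was Tap2, which lies beside Psmb8 in the class II region, at 190.4 ± 2.70.

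Few intervals without a GENCODE protein-coding TSS lay nearest to proteasome genes. Each distal interval was given to its nearest protein-coding TSS, and 105 fell to proteasome genes, a median of 1 per gene, against 2 over all protein-coding genes and 3 over those with a TSS interval. For 18 of the 50 none was nearest, as for 6538 of all 21938 protein-coding genes and 3121 of the 14945 with a TSS interval. Psmb7 had 11, the most, and Psme4 had 10. A mean normalised count over 100 was found in 30 of the 105, against 31866 of 103374 over all protein-coding genes. Among the 30, an interval of 542 and 512 counts held a RefSeq TSS of Psmc2, so it is distal only by the GENCODE starts. The densest, at 931 normalised counts per kb, was centred 2528 bp from Psma5, with 380 and 350 counts, and the one with the most counts, 832 and 812, was centred 5590 bp from Psma3 with a density of 365. Nearness does not show that a gene is regulated by an interval.

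The labelled cell type was checked against promoter intervals of marker genes, which tell of accessibility and not of expression. All 9 neural progenitor markers (Olig2, Sox1, Pax6 and others) had a TSS interval, with a median density of 819.8 ± 4.31. Of these, 4 lay above the median of genes with an interval, and Pax6 was the lowest at 577. Motor neuron markers had an interval in 7 of 8, with 1 above that median (Isl2, 2268), and neuromesodermal markers in 4 of 6, with 0 above. Pluripotency markers had an interval in 3 of 6, with 1 above (Klf2, 1165), and germ cell markers in 3 of 6, with 1 above (Dazl, 1453). Feeder fibroblast markers had an interval in 6 of 8 and immune markers in 2 of 8, with 0 above in both lists. The median over the 8 immune markers was 0 in both libraries. Klf2 and the progenitor marker Sox1 are on chromosome 8, where the median density of genes with an interval was 1188. Klf2 lay below that median and Sox1, at 1498, above it. Of the immune subunit genes, Psmb8 was at 232. Psmb10 and the interval that Psmb9 shares with Tap1 were above the median of genes with an interval, but Psmb10 stood at 0.902 of the median of its own chromosome. The part of other cells in the sort in any value of the proteasome genes was not tested.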

How the data were processed

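ATAC-seq libraries from 2 replicates of 1 group were used. The deposited table held raw counts of fragments in 119502 consensus intervals on mm10, which the authors made with featureCounts 2.0.1, which counted a fragment in every interval it overlapped by at least a fraction of 0.2. Per the study's methods, reads were processed with the nf-core pipeline and peaks were called with MACS and merged into consensus intervals. Intervals had been defined over 5 libraries. The other 3 columns belonged to no sample here and were not used. Intervals were matched to every TSS of protein-coding genes of GENCODE release M21 on GRCm38.

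Size factors from DESeq2 (1.42.0) scaled the counts. With 1 group there was no contrast to fit, and edgeR (4.0.16) served only for TMM factors. Replicates were compared with an exact binomial test (scipy 1.17.1), which was tested on simulated data. Further steps used Python 3.11.15, numpy 2.4.6, pandas 2.3.3 and pysam 0.24.0. The total counts (31876165 and 31672240) limit the precision of each value.

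The genes and the gene and motif lists were chosen with earlier results of these data known. All 50 genes are accounted for, and values in both libraries are given for all catalytic, tissue-specific, assembly, activator and inhibitor genes and the other name matches, and for the 2 highest and the 2 lowest of each remaining group. Alternatives covered the scaling, the pseudocount, the TSS definition, length division, low counts and leaving out a replicate.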

Additional observations from a re-analysis of the deposited data

How the results depend on the processing

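Scaling by edgeR TMM factors or total counts and a minimum mean count of 10 moved no median by more than the replicate spread. The minimum count also left the number of genes with an interval unchanged. Neither the scaling nor leaving out a replicate could change that number, which rests on the position of the TSS alone. Leaving out a replicate could not move a mean by more than the replicate spread either, so it tests nothing on that scale. Without replicate 1 or 2 the median density of the 50 genes was 855 to 879, its ratio to all protein-coding genes 1.76 to 1.77, and 27 to 28 genes lay above the median of genes with an interval (29 with both). With only the start of the gene record as TSS, Psma6, Psmb10, Psmd5, Psmd9 and Psmf1 lost their interval and 42 genes had one. The median was then 829, the ratio 2.06, the ratio among genes with an interval 0.996, the SD of log2 density 0.65, and the group medians 1113 (core alpha), 701 (assembly factors) and 0 (tissue-specific core). With coding transcripts only, Psmb10 lost its interval, the ratio among genes with an interval was 1.03, the SD 0.72 and the tissue-specific median 0. Within 1 kb of a TSS, Psma8 and Psmb11 gained intervals, with that ratio at 1.14 and the SD at 0.91. Without division by length, the median was 997 counts, the ratio 1.45, the ratio among genes with an interval 0.845, the genes above the median 16 and the SD 0.77. The group medians were then 663 (core beta), 297 (tissue-specific core), 1066 (ATPases), 1172 (non-ATPase), 860.0 (assembly factors), 1053 (activators and inhibitor) and 468 (other names). Leaving out the other names gave a ratio of 1.79, and a pseudocount of 10 an SD of 0.73. Chosen after the data were seen, genes with unshared intervals gave a ratio of 1.14, and densities relative to the chromosome's median 1.101. From 500 bases before to 100 after the start, the ARE core was in 16 genes (32%, against 21.5% of all protein-coding genes) and the ETS core in 20 (40%, against 13.7%). The TATA box was in 7 (14%, against 25.5%) and the ISRE core in 8 (16%, against 7.48%) in that window. Distal intervals over 100 counts numbered 30. With TMM factors 6 of all intervals differed between the libraries, and by a chi-square test 0, with 11102 at an unadjusted p under 0.05 (exact binomial test 10029).

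The ratio near 1 among genes with an interval thus took either direction, depending on the TSS definition and the length division, and densities of 2 genes that share an interval are one measurement. No paired analysis was possible because the labels define a single group. Each value rests on 2 libraries, and intervals exist only where a peak was called.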
